A study of Mus musculus with 6 samples.

Results

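The nuclear-encoded subunits of the respiratory chain and ATP synthase, with the few related proteins that carry the same gene names, were examined in livers of control mice and of mice with a hepatocyte knockout of Notch1. They were chosen by name: protein-coding genes outside the mitochondrial genome whose symbols start with Nduf, Uqcr, Cox4, Cox5, Cox6, Cox7, Cox8 or Atp5, together with Sdha, Sdhb, Sdhc, Sdhd, Cyc1 and Cycs. The rule found 96 of the 54532 genes in the expression table, under 95 distinct names because Atp5o is listed at 2 positions. The rule itself uses names and positions, not expression values.

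RNA was sequenced from whole, untreated mouse livers: 3 from control mice of the genotype Notch1fl/fl, in which Notch1 carries floxed alleles, and 3 from mice labelled Hepatocyte Notch1 KO. The study asked about the role of Notch1, a receptor that signals between neighbouring cells, in the production of thrombopoietin by the liver. Neither the Cre line and its promoter nor the sex and age of the mice is given in the sources used here. The label names hepatocytes, and whether the other cells of the liver kept their Notch1 was not measured. Nothing states how the mice were housed or handled, so the p-values measure only the spread between these livers.

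The respiratory chain sits in the inner mitochondrial membrane. Complex I takes electrons from NADH and complex II from succinate, both pass them to coenzyme Q, and complex III, cytochrome c and complex IV carry them on to oxygen. Complexes I, III and IV pump protons, and ATP synthase uses the returning protons to make ATP. Most subunits are encoded in the nucleus and imported, while a small set is encoded in mitochondrial DNA, so that every complex except complex II is built from the products of both genomes. Hepatocytes depend on this chain to power gluconeogenesis, urea synthesis and fatty acid oxidation.

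The libraries held 15612924 to 17511961 reads assigned to genes, and levels are given as FPKM, the fragments counted per gene divided by gene length and library size, as deposited. Notch1 was measured at 0.618, 0.965 and 0.854 FPKM in controls 1 to 3 and at 0.301, 0.540 and 0.292 FPKM in knockouts 1 to 3, a knockout mean 0.465 times the control mean. All 3 knockout livers were lower than every control, but the difference did not pass the test (log2 fold change -0.40, SE 0.13, adjusted p = 0.257, limma). The 9 hepatocyte markers measured had mean levels of 315 to 29678 FPKM. Of the 12022 genes that averaged at least 0.5 FPKM, 3 passed an adjusted p of 0.05 (Bcl6, Wdfy1 and Cish), named here because the count is small. The count was 0 with the replicate number as a block, and 0 to 58 with 1 liver left out.

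No respiratory chain gene passed the test. Of the 96 genes, 89 averaged at least 0.5 FPKM and were tested with limma on log2(FPKM + 1), and 0 of the 89 had an adjusted p under 0.05, against 0.025% of all genes tested. The smallest adjusted p among them was 0.291, for Ndufs1. Before adjustment, 3 of the 89 (3.37%) had a p under 0.05, against 13.9% of all genes tested: Ndufs1 and Ndufa10 had lower knockout means and Ndufaf3 a higher one. All 3 knockout livers were below all 3 controls for 10 of the 89 genes (11.2%), close to the 10.6% among all genes tested. All 3 knockout livers were above all controls for 0 of the 89, against 9.2% of all genes tested.

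The differences were small in size as well. The log2 fold changes ran from -0.31 to 0.53 with a median of -0.06, beside a median of -0.01 over all genes tested, and 84 of the 89 genes had a knockout mean between 0.8 times the control mean and the reciprocal of 0.8. The 95% interval of the log2 fold change lay within -0.5 to 0.5 for 72 genes and within -1 to 1 for 87. The median interval reached 0.32 to either side of the estimate. These intervals are unadjusted and the test is stricter, so for most of these genes a difference had to be larger than 0.32 to pass. Ndufaf3, for example, had an estimate of 0.41 and an adjusted p of 0.343 (limma). A log2 fold change beyond 0.5 in either direction was estimated for 1 of the 89 (1.12%), compared with 7.78% of all genes tested and 9.37% of those averaging at least 10 FPKM. The median spread within groups was alike, with a pooled SD of 0.159 on the log2 scale for the respiratory chain genes and 0.156 for all genes tested.

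**Figure D1:**
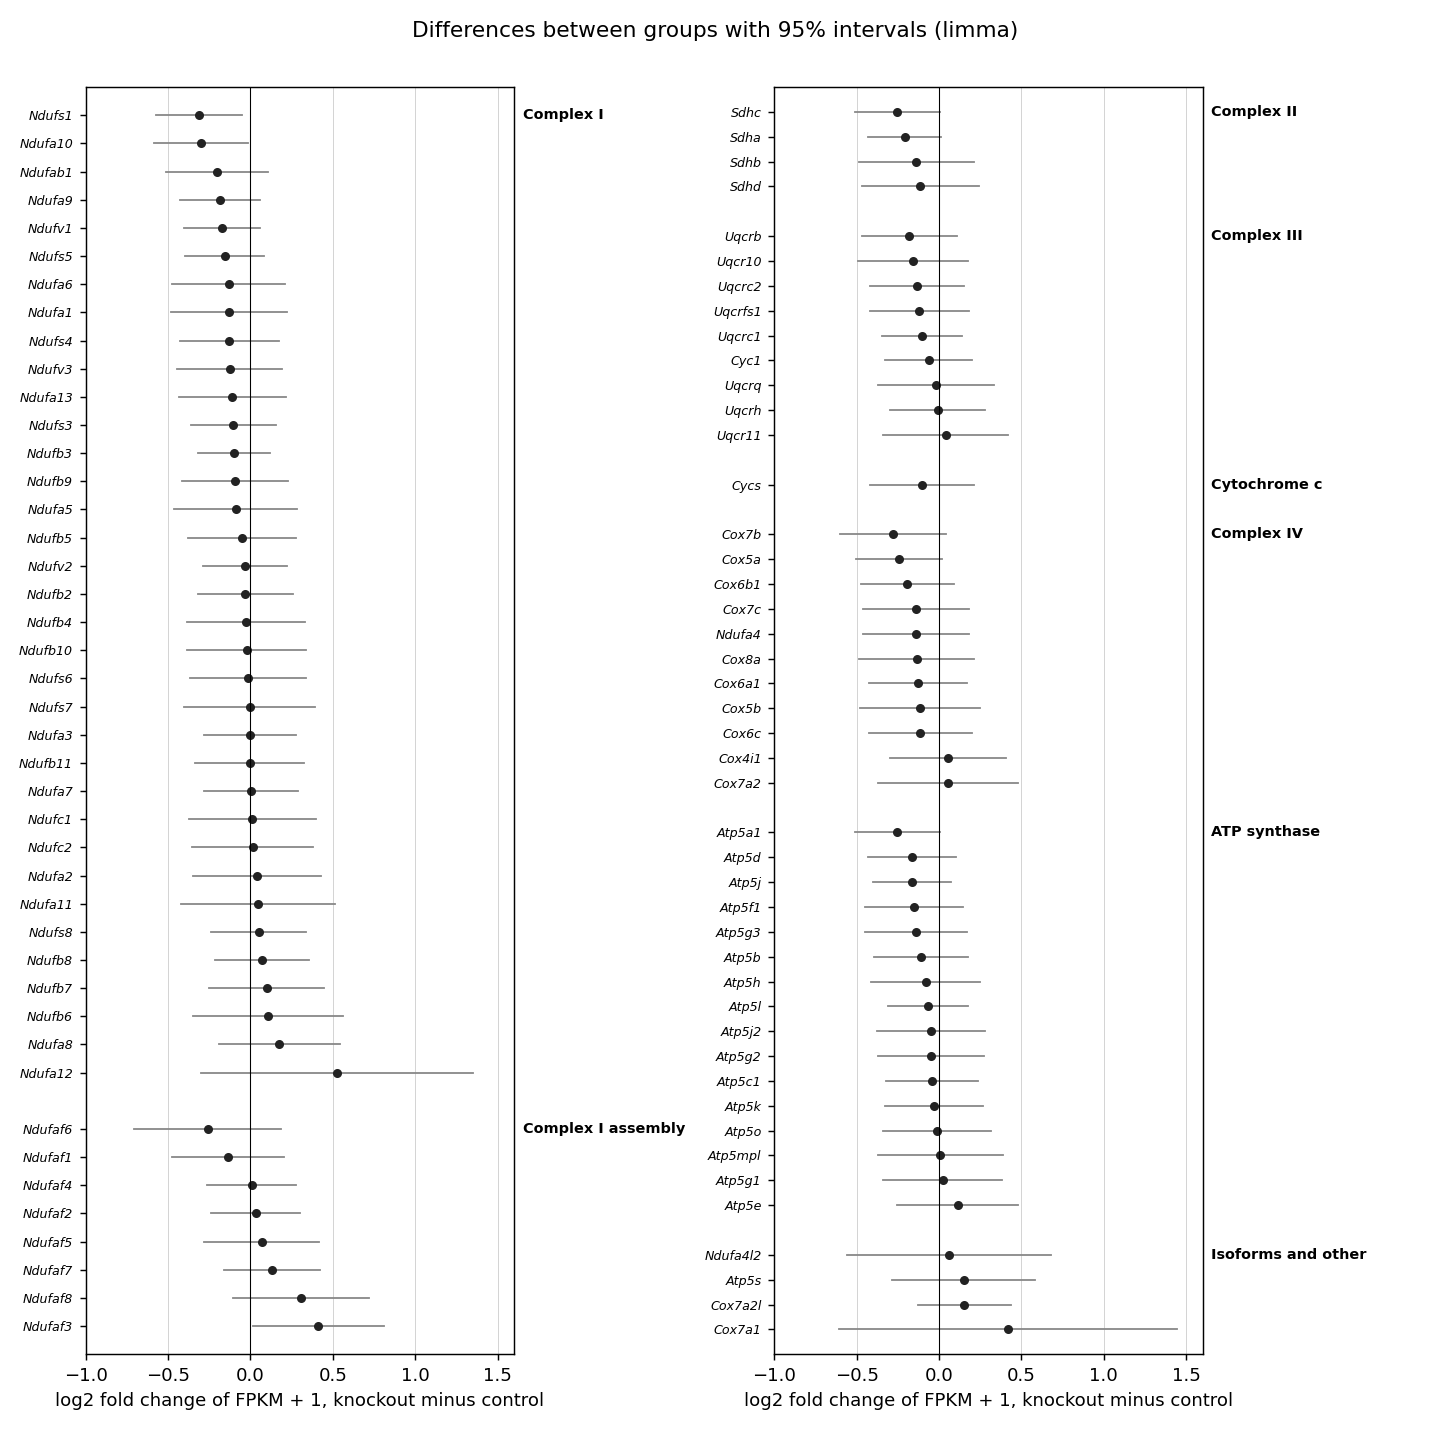
Log2 fold change of FPKM + 1, knockout minus control, for 88 of the tested genes by complex; points are limma estimates and lines are 95% intervals. The interval excludes 0 for 3 genes, Ndufs1, Ndufa10 and Ndufaf3, before any adjustment for the number of genes tested.

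More genes had a lower than a higher knockout mean, 61 against 28. This direction depended on how the libraries were scaled. By the sign of the log2 fold change, 27 genes were higher and 62 lower with FPKM as deposited, 71 were higher and 18 lower with the libraries rescaled to the same FPKM sum, and 53 were higher and 36 lower after quantile normalization. Rescaling moved the median of all genes to 0.10, and relative to that shift the respiratory chain median was -0.02. Without knockout 2 the split was 11 higher and 78 lower, and without knockout 3 it was 42 higher and 47 lower. In bulk tissue, fewer cells of a type and less RNA per cell cannot be told apart.

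Levels of the members spanned a wide range. Among the 77 structural subunits, which leave out assembly factors and tissue-restricted isoforms, 76 averaged above 10 FPKM. The highest was Cox6a1, a small nuclear subunit of complex IV, at 588 ± 39.3 FPKM in control livers and 537 ± 31.3 in knockout livers (SD, n = 3 each). The lowest was Ndufb2, an accessory subunit of complex I, at 2.39 ± 0.461 FPKM in control livers and 2.30 ± 0.214 in knockout livers (SD, n = 3 each). Ndufb2 had 188 to 250 reads a library over a gene length of 5628 bases, against a median length of 1251 bases for the accessory subunits of complex I. It lies outside the rule for named genes and was added for its low level. Of the 89 tested genes, 86 had at least 100 reads in every library, and the lowest read count was 8, for Cox7a1 in 1 control.

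**Figure D2:**
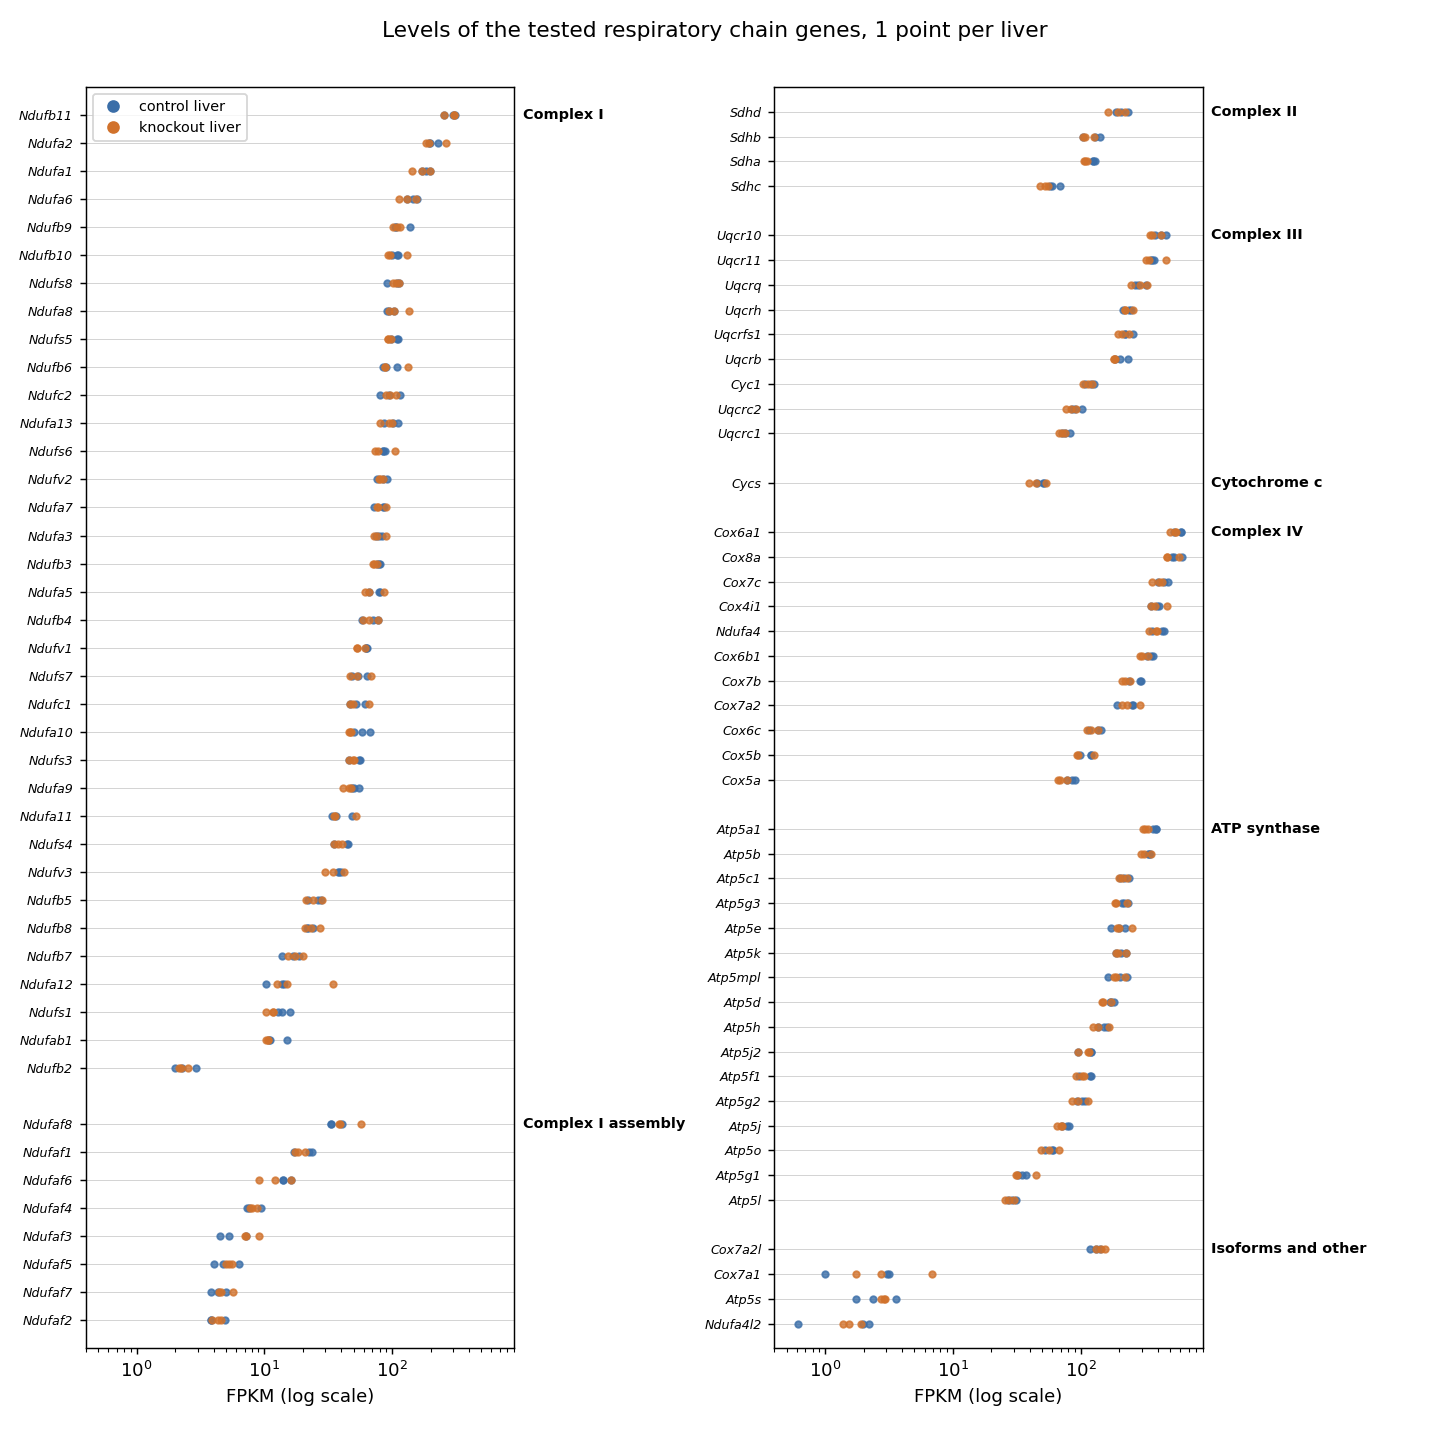
FPKM on a log axis for 88 of the tested genes, 1 point per liver, with control livers in blue and knockout livers in orange. Structural subunits of complexes III and IV and of ATP synthase lie mostly above 100 FPKM, assembly factors mostly under 10, and the 2 colours overlap for 78 of them.

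The promoters were examined for short motifs known to bind regulators of respiratory chain genes. RefSeq (GRCm38.p6) gave a promoter, from 250 bases before to 50 after the start, for 72 of the 89 tested genes, and 4 motifs were searched on both strands. The palindrome of GCGCA followed by its reverse complement, bound by the nuclear respiratory factor NRF1, was in 7 of the 72 (9.7%), compared with 2.4% of the 8417 tested genes with a promoter. The letters CCGGAAG, an ETS motif of the kind bound by GABPA, were in 18 (25.0%), compared with 20.6%. AAGATGGC, a YY1 motif, was in 10 (13.9%), compared with 5.5%, and TCAAGGTCA, bound by the estrogen-related receptors, was in 2 (2.8%), compared with 0.3%. A match describes letters only, and binding was not measured.

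The 120 bases before the start of 4 genes are shown as examples from different complexes, 1 window with a motif and 3 without, and hold no annotated exon. Capitals mark the estrogen-related receptor motif on the opposite strand, 52 bases before the start of Atp5g3. The windows of Cox5a, Uqcr10 and Ndufs8 hold none of the 4 motifs; the ETS motif counted for Ndufs8 lies outside the bases shown. The windows lie at chr2:73911327-73911446 on the minus strand for Atp5g3, chr9:57521112-57521231 on the plus strand for Cox5a, chr11:4704345-4704464 on the minus strand for Uqcr10 and chr19:3912775-3912894 on the minus strand for Ndufs8.
Atp5g3: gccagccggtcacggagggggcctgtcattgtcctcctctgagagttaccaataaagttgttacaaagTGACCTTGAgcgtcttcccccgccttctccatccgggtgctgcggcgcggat
Cox5a: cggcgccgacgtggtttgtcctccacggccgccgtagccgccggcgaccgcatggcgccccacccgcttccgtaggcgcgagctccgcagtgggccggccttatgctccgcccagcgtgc
Uqcr10: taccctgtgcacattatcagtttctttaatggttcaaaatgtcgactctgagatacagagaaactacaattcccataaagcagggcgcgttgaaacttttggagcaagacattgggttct
Ndufs8: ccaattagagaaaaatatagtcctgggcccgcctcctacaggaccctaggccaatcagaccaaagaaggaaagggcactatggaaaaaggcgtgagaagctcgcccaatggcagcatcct

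Complex I, the NADH dehydrogenase, had 7 core subunits and 29 accessory subunits tested. The core subunits hold the flavin and iron-sulfur clusters that carry electrons. Ndufs1, the largest of them with several iron-sulfur clusters (chr1:63143596-63176833), was measured at 12.7, 16 and 13.8 FPKM in the controls and at 11.6, 11.7 and 10.3 FPKM in the knockouts. All 3 knockout livers were below the lowest control, and control 2 stood above the rest. The log2 fold change was -0.31 (SE 0.11, adjusted p = 0.291, limma), the smallest adjusted p of any respiratory chain gene. Ndufv1, which binds NADH and flavin, was likewise lower in each knockout, at 62.8 ± 0.808 FPKM in control livers and 55.8 ± 4.49 in knockout livers (SD, n = 3 each, adjusted p = 0.487, limma). Ndufv1 lies outside the rule for named genes and was added after its values were seen.

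The other 5 core subunits had overlapping groups. Ndufs8, an iron-sulfur subunit, was measured at 113, 109 and 90.6 FPKM in the controls and at 114, 108 and 101 FPKM in the knockouts, with overlapping groups. Its log2 fold change of 0.05 was the highest of the 7 core subunits, whose median was -0.04.

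The accessory subunits surround the core and stabilise it. Of the 29, 11 had a higher and 18 a lower knockout mean, and the median log2 fold change was -0.03. Ndufa10 (chr1:92439010-92473860) was measured at 66.7, 57.8 and 50.5 FPKM in the controls and at 46.8, 47.6 and 46.1 FPKM in the knockouts. The knockout livers were tightly grouped below controls that spread over a wider range, and the log2 fold change was -0.30 (SE 0.12, adjusted p = 0.336, limma). Ndufa9 and Ndufab1, the mitochondrial acyl carrier protein, were also below every control in all 3 knockouts, with log2 fold changes of -0.18 and -0.20 (adjusted p = 0.480 and 0.542, limma). Both lie outside the rule for named genes and were added after their values were seen. Ndufb11, a membrane-arm subunit on the X chromosome and the accessory subunit with the highest level, had group means closer than the spread between livers, at 290 ± 30.1 FPKM in control livers and 289 ± 30.8 in knockout livers (SD, n = 3 each).

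Ndufa12 had the highest log2 fold change of all 89 genes, 0.53, and this rested on 1 liver. The gene encodes an accessory subunit that joins late in assembly (chr10:94198720-94221443). It was measured at 13.8, 14.3 and 10.3 FPKM in the controls and at 12.5, 34.3 and 15.0 FPKM in knockouts 1, 2 and 3. Knockout 2 stood far above the other 5 livers, while knockouts 1 and 3 lay within or just above the control range (SE 0.35, adjusted p = 0.556, limma). Without knockout 2 the log2 fold change was 0.10.

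Reads at a copy of Ndufa12 were lowest in the same liver. Gm15920, a processed pseudogene that shares 17.7% of the 50-base stretches of Ndufa12, held 63.1%, 61.5% and 70.0% of the combined reads of gene and copy in the controls. It held 67.2%, 30.3% and 56.4% in knockouts 1, 2 and 3, so that knockout 2 had the lowest share. After division by a library factor (the median, over genes, of its reads relative to the geometric mean of the 6 libraries), knockout 2 had 884 reads at the gene and 385 at the copy, while the other livers had 266 to 387 at the gene and 501 to 660 at the copy. The sum of both was 1269 in knockout 2 and 886 to 981 in the other livers. The ratio of the knockout to the control mean was 1.61 for the gene alone and 1.12 for gene and copy together. How reads that match both places were assigned is not given in the sources used here, and its part in the difference was not tested.

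**Figure D3:**
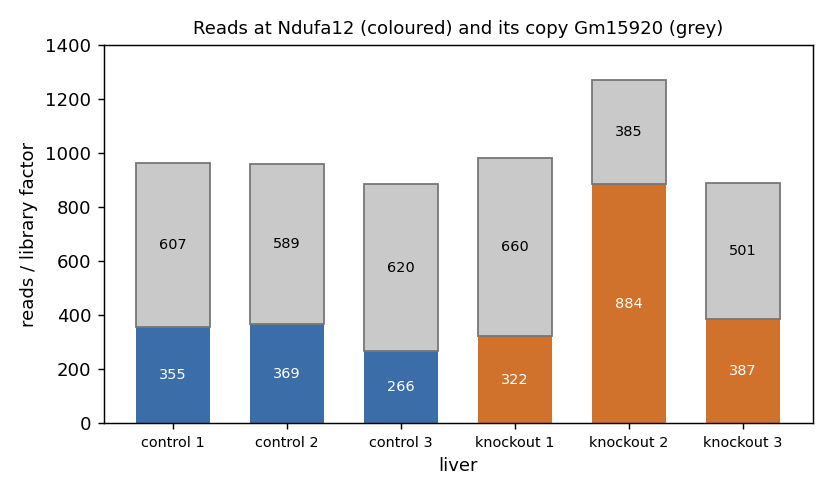
Reads at Ndufa12 (lower, coloured bars, blue for control and orange for knockout) and at its processed pseudogene Gm15920 (upper, grey bars), divided by each library's factor, for each liver. Knockout 2 had the most reads at the gene, 884, the fewest at the copy, 385, and the highest sum, 1269.

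Processed pseudogene copies held a smaller share of the combined reads elsewhere. In all, 18 of the 89 tested genes had an annotated processed pseudogene that shared at least 50 stretches of 50 bases, and for 6 the copies held at least 10% of the combined reads: Uqcrb (11.1%), Atp5h (17.4%), Atp5g1 (25.8%), Ndufab1 (27.0%), Atp5l (33.5%) and Ndufa12 (55.1%). With gene and copies summed, the ratio of the knockout to the control mean lay between 0.86 and 1.118 for all 18. Ndufab1, for example, had a ratio of 0.849 alone and 0.86 with its copies. Exons of other genes overlap at least 10% of the exon bases of 13 members, 65.6% for Ndufaf2, and whether strand was used in counting is not given in the sources used here, so the values of those genes may include reads of their neighbours. Cox5a (12.8%, by Gm26631), Ndufb11 (12.9%, by Rbm10) and Atp5j (12.7%, by Gabpa) are among them.

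The 8 complex I assembly factors with Nduf names had low levels, with a median of 7.43 FPKM, and 6 had a higher and 2 a lower knockout mean. Assembly factors help to build the complex and are not part of it when it is finished. Ndufaf3, which acts early in joining the arm that carries coenzyme Q to the membrane (chr9:108565537-108567434), was measured at 5.25, 7.22 and 4.51 FPKM in the controls and at 7.11, 9.01 and 7.22 FPKM in the knockouts. Knockout 1 lay just under control 2, so the groups overlapped. The log2 fold change was 0.41 (SE 0.17, adjusted p = 0.343, limma), and the gene had the smallest unadjusted p among those with a higher knockout mean.

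Ndufaf8, the assembly factor with the highest level, was measured at 33.1, 40.3 and 33.0 FPKM in the controls and at 38.4, 56.7 and 38.8 FPKM in the knockouts. Knockout 2 was again the highest liver, and knockouts 1 and 3 lay below control 2 (log2 fold change 0.30, SE 0.17, adjusted p = 0.487, limma). Without knockout 2 the log2 fold change of Ndufaf8 was 0.12. Ndufaf6 differed between knockouts more than between groups, at 13.98, 16.1 and 14.1 FPKM in the controls and at 16, 12.2 and 9.05 FPKM in the knockouts. Its log2 fold change was -0.26 (SE 0.19, adjusted p = 0.590, limma), -0.45 without knockout 1 and -0.07 without knockout 3. The median log2 fold change of the 8 factors was 0.05, and it was 0.17 without control 2 and -0.02 without control 3.

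Complex II, succinate dehydrogenase, also works in the tricarboxylic acid cycle and is the complex with no mitochondrially encoded subunit. All 4 subunits had lower knockout means, with log2 fold changes from -0.25 to -0.11, and none passed the test. Sdha, the flavoprotein that oxidises succinate (chr13:74322254-74350280), was measured at 124, 124 and 129 FPKM in the controls and at 111, 109 and 106 FPKM in the knockouts. The groups were narrow and did not overlap, and the log2 fold change was -0.21 (SE 0.09, adjusted p = 0.380, limma). Sdhc, a membrane anchor (chr1:171127165-171150603), was measured at 68.6, 60.0 and 57.9 FPKM in the controls and at 48.1, 55.1 and 52.6 FPKM in the knockouts. These groups did not overlap either (log2 fold change -0.25, SE 0.11, adjusted p = 0.363, limma).

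Sdhb, the iron-sulfur subunit, and Sdhd, the other anchor, had overlapping groups. Sdhb was measured at 126 ± 18.7 FPKM in control livers and 114 ± 12.3 in knockout livers (SD, n = 3 each). Sdhd was measured at 209 ± 22.8 FPKM in control livers and 194 ± 28.4 in knockout livers (SD, n = 3 each). The median log2 fold change of the 4 subunits, -0.17, was -0.03 with libraries rescaled to the same sum and -0.05 after quantile normalization.

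Complex III, which passes electrons from coenzyme Q to cytochrome c, had 9 subunits tested, 1 with a higher and 8 with a lower knockout mean. Uqcr10, a small subunit and the one with the highest level, was measured at 462, 428 and 380 FPKM in the controls and at 363, 430 and 348 FPKM in the knockouts, with overlapping groups. Uqcrb was measured at 204, 236 and 186 FPKM in the controls and at 185, 184 and 182 FPKM in the knockouts. The 3 knockouts were nearly equal and only just below the lowest control (log2 fold change -0.18, SE 0.12, adjusted p = 0.565, limma). Uqcr11, the subunit with a higher knockout mean, followed knockout 2, which was at 466 FPKM while the other 5 livers were at 327 to 377 FPKM.

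Cycs, the cytochrome c of somatic cells, carries electrons between complexes III and IV and was measured at 51.7, 51.0 and 45.5 FPKM in the controls and at 45.1, 53.8 and 39.5 FPKM in the knockouts. The groups overlapped, with the highest and the lowest liver both knockouts (log2 fold change -0.10, SE 0.13, adjusted p = 0.785, limma).

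Complex IV, cytochrome c oxidase, had 11 nuclear subunits tested, 2 with a higher and 9 with a lower knockout mean. Ndufa4, named for complex I, is counted here because it is now assigned to complex IV. Cox5a, which binds a thyroid hormone metabolite and contacts the matrix side (chr9:57521274-57532426), was measured at 84.9, 90.9 and 78.9 FPKM in the controls and at 67.0, 78.8 and 69.3 FPKM in the knockouts. Knockout 2 almost touched control 3, and the groups did not overlap (log2 fold change -0.24, SE 0.11, adjusted p = 0.392, limma). Cox6a1 was measured at 614, 606 and 543 FPKM in the controls and at 559, 551 and 501 FPKM in the knockouts, with overlap. Cox4i1, the subunit through which ATP inhibits the enzyme, had a higher knockout mean, at 387 ± 28.9 FPKM in control livers and 404 ± 61.5 in knockout livers (SD, n = 3 each). Its highest liver was knockout 2, and its adjusted p was 0.912 (limma).

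ATP synthase had 16 subunits tested, 5 of the catalytic F1 head and 11 of the membrane Fo part and the stalks. Atp5a1, the alpha subunit of the head, was measured at 388, 392 and 371 FPKM in the controls and at 310, 339 and 317 FPKM in the knockouts. The groups did not overlap, and the log2 fold change of -0.25 (SE 0.11, adjusted p = 0.368, limma) was the lowest of the 16. Atp5b, the catalytic beta subunit that pairs with it in the head, had a log2 fold change of -0.11; it lies outside the rule for named genes and was added after its value was seen. Atp5e, the epsilon subunit, had the highest log2 fold change of the F1 head, 0.11, with 199 ± 24.8 FPKM in control livers and 216 ± 33.2 in knockout livers (SD, n = 3 each).

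Within Fo, the proton-carrying c ring is encoded by 3 genes, Atp5g1, Atp5g2 and Atp5g3, that yield the same mature protein. Atp5g3 had the highest level of the Fo and stalk genes, at 218, 236 and 209 FPKM in the controls and at 185, 232 and 189 FPKM in the knockouts, with overlapping groups. Atp5g1 was measured at 37.5, 34.5 and 32.4 FPKM in the controls and at 31.1, 44.4 and 31.8 FPKM in the knockouts. Knockout 2 was above the control range, and knockouts 1 and 3 were just below it. Atp5j, the coupling factor of the peripheral stalk, had the smallest p of the Fo and stalk genes with a lower knockout mean (log2 fold change -0.16, SE 0.10, adjusted p = 0.519, limma). Atp5o, a stalk subunit, was measured at 57.7 ± 4.48 FPKM in control livers and 57.5 ± 9.18 in knockout livers (SD, n = 3 each), and its second listed position, which overlaps the first, had 0 reads in all 6 livers. Atp5s, a factor named with the synthase that is no part of its core, was measured at 2.56 ± 0.941 FPKM in control livers and 2.86 ± 0.121 in knockout livers (SD, n = 3 each).

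The isoforms of heart, skeletal muscle, testis and lung were near the limit of measurement. Cox6a2, Cox8b, Cox6b2 and Cox4i2 averaged under 0.5 FPKM and were not tested, and Cox7b2 and Cox8c were listed at 0 in all 6 livers. Cox7a1, the muscle form, averaged 2.39 ± 1.21 FPKM in control livers and 3.76 ± 2.68 in knockout livers (SD, n = 3 each), with 8 to 73 reads a library and its highest value in knockout 2. Ndufa4l2, a hypoxia-inducible relative of Ndufa4, averaged 1.6 ± 0.870 and 1.61 ± 0.272 FPKM (SD, n = 3 each). Of the 11 markers of skeletal and heart muscle 3 were at 0 in every library, and their summed level was 0.158 to 1.26 FPKM in controls and 0.145 to 0.718 in knockouts. Cox7a2l, which joins complexes III and IV into supercomplexes, was by contrast abundant, at 132, 141 and 118 FPKM in the controls and at 133, 157 and 145 FPKM in the knockouts. The groups overlapped (log2 fold change 0.15, SE 0.12, adjusted p = 0.611, limma).

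Over the 89 genes, livers of 1 group stood farther apart than the groups did (median log2 fold change -0.06). Measured as the median difference of the 89 genes from their control means on the log2(FPKM + 1) scale, controls 1, 2 and 3 were at 0.05, 0.08 and -0.12, and knockouts 1, 2 and 3 at -0.08, 0.09 and -0.18. Control 3 and knockout 3 were thus low and knockout 2 high. Knockout 2 was the highest of the 3 knockouts for 69 genes and the highest of all 6 livers for 35, while knockout 3 was the lowest of all 6 for 42. Control 3 was the lowest control for 74 genes. For complexes II and IV the median of knockout 2 lay below the control mean, at -0.07 and -0.06, though it was still the highest knockout median.

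**Figure D4:**
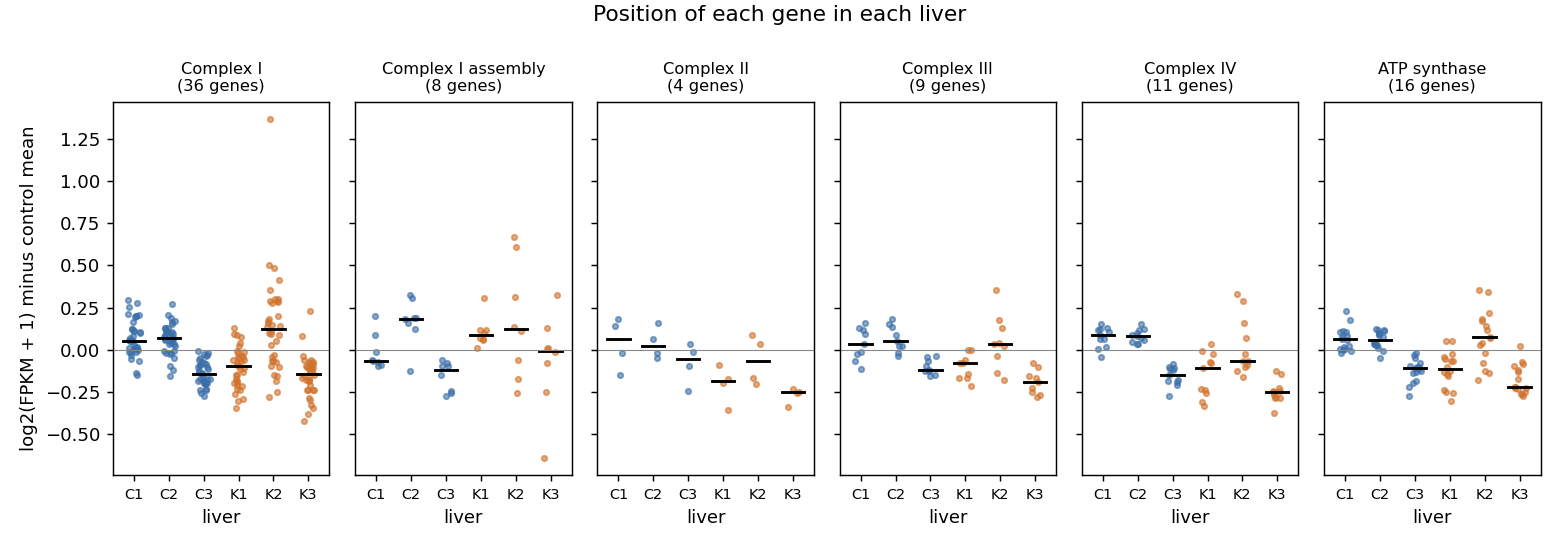
Difference of each gene from its control mean on the log2(FPKM + 1) scale, by complex, with controls (C1 to C3) in blue, knockouts (K1 to K3) in orange and the median as a bar. For complex I the knockout medians ran from 0.12 in knockout 2 to -0.14 in knockout 3, a wider span than the median log2 fold change of -0.03.

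Knockout 2 stood apart in its library as well. Its factor was 1.22, against 0.91 to 1.04 for the other 5 libraries, and its FPKM sum was 397120, against 432910 to 517130. The respiratory chain genes took 3.17% of the FPKM sum there, compared with 2.35% to 2.51% in controls and 2.15% and 2.40% in knockouts 1 and 3. Cell type markers, none of which passed the test, were summed in each liver. The summed level of the 9 hepatocyte markers was 51844 to 59968 FPKM in controls and 37738 to 49106 in knockouts, without overlap. Alb alone averaged 33417 FPKM in controls and 25939 in knockouts, the larger part of this sum. Of the 9, 8 had lower knockout means (median log2 fold change -0.23). All knockouts were below all controls for only 2 of them, Alb and Cyp2e1. The summed level of the 7 bile duct markers was 15.9 to 19.2 FPKM in controls and 26.5 to 36.2 in knockouts, also without overlap. The summed level of the 10 mesothelial markers was 185 to 268 FPKM in controls and 289 to 416 in knockouts. Krt8 and Krt18 made up most of that sum, with means of 99.4 and 102 FPKM in controls and 123 and 129 in knockouts. In control 1, where Msln was at 2.02 FPKM, they were at 90.1 and 89.7, so that sum does not measure mesothelial cells alone. Msln, by contrast, was at 2.02, 3.90 and 19.1 FPKM in the controls and at 36.6, 60.7 and 41.8 in the knockouts. The summed level of the 7 erythroid markers was 756 to 928 FPKM in controls and 374 to 762 in knockouts. All 9 tested genes of the mesothelial list, Krt8 and Krt18 among them, had higher and all 5 tested erythroid markers lower knockout means. The part of these differences in the nuclear and mitochondrially encoded respiratory chain values was not tested.

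The 13 subunits encoded in mitochondrial DNA had larger differences than their nuclear partners in the same livers, though 0 of the 13 passed the adjusted test. Of these, 12 had a lower and 1 a higher knockout mean, and 8 had an unadjusted p under 0.05, against 13.9% of all genes tested (limma). The median log2 fold change was -0.75, beside -0.09 for the 77 nuclear structural subunits. By liver, the median difference from the control mean was -0.01, 0.24 and -0.32 in controls 1, 2 and 3. It was -0.32, -1.24 and -0.75 in knockouts 1, 2 and 3, so knockout 1 lay level with control 3. mt-Nd5, a proton-pumping subunit of complex I, was measured at 2877, 3630 and 2732 FPKM in the controls and at 2192, 1134 and 1707 FPKM in the knockouts. All knockouts were below all controls, and knockout 2 was lowest (log2 fold change -0.92, SE 0.27, adjusted p = 0.225, limma). mt-Nd3, another complex I subunit and the 1 with a higher knockout mean, was at 17.3 to 98 FPKM in controls and 44 to 65.1 in knockouts. Transcripts were taken by their poly(A) tails, and the mitochondrially encoded genes ranged from 1.63 FPKM to 15902 FPKM on average.

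The balance between the genomes can be read within each liver. For complex III, the level of the mitochondrially encoded subunit divided by the mean of its nuclear partners was 52.0, 56.4 and 42.8 for controls 1, 2 and 3 and 41.2, 19.3 and 29.2 in knockouts 1, 2 and 3. For complex I the ratio of means was 46.3, 49.9 and 42.6 for controls 1, 2 and 3 and 39.2, 17.9 and 32.6 in the knockouts. For complex IV it was 19.6, 22.8 and 19.3 for controls 1, 2 and 3 and 17.2, 8.94 and 13.8 in the knockouts. Each knockout was below each control in these 3 complexes, with knockout 2 the lowest, and the ratios do not depend on how a library is scaled. The exact two-sided permutation test on the log2 ratio gave p = 0.10 for each of the 3, the smallest that 3 livers against 3 can give. For ATP synthase the groups overlapped, at 0.234 to 0.521 in controls and 0.120 to 0.764 in knockouts (exact permutation p = 0.70). Its mitochondrially encoded subunits averaged only 33.5 to 83.5 FPKM in controls and 19.2 to 107 in knockouts. Those of the other 3 complexes averaged 1574 FPKM or more in every liver. Overlaps and copies were examined only for the nuclear genes. The mitochondrially encoded genes took 10.3% to 13.3% of the FPKM sum in controls and 6.20% to 8.78% in knockouts.

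**Figure D5:**
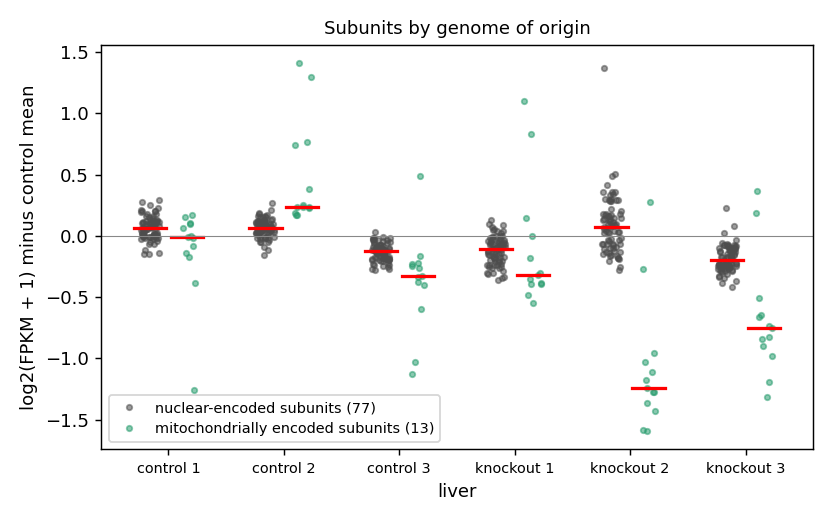
Difference from the control mean on the log2(FPKM + 1) scale in each liver for 77 nuclear-encoded subunits (grey) and 13 mitochondrially encoded subunits (green), with the median of each as a red bar. In knockout 2 the nuclear genes lie near or above the control level while the median of the mitochondrially encoded genes is -1.24. That median is -0.32 in both control 3 and knockout 1, and -0.75 in knockout 3.

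Of the 40 tested assembly factors outside the naming rule, 21 had a higher and 19 a lower knockout mean, and 0 passed the test. Cox11, which delivers copper to complex IV, was measured at 2.76, 2.33 and 2.50 FPKM in the controls and at 3.81, 4.91 and 4.19 FPKM in the knockouts. All knockouts were above all controls (log2 fold change 0.58, SE 0.11, adjusted p = 0.115, limma). Tmem186, a complex I assembly factor, was below every control in each knockout (log2 fold change -0.31, adjusted p = 0.284, limma). Atpif1, the inhibitor of ATP synthase, had overlapping groups and a log2 fold change of -0.06.

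Around the chain, the other enzymes that feed electrons into coenzyme Q had lower knockout means in 8 of 8 cases, with a median log2 fold change of -0.21. Prodh2, a hydroxyproline dehydrogenase, was measured at 59.8, 68.7 and 58.2 FPKM in the controls and at 43.9, 48.0 and 41.4 FPKM in the knockouts. The groups did not overlap (log2 fold change -0.48, SE 0.11, adjusted p = 0.165, limma). The unadjusted p was also under 0.05 for Etfdh and Gpd2, which lie outside the rule for named genes and are listed after their values were seen. That makes 3 of the 8 enzymes, against 13.9% of all genes tested (limma). Among the 13 tested genes of coenzyme Q synthesis, 7 had a higher and 6 a lower knockout mean, with Coq8a at a log2 fold change of -0.40 (adjusted p = 0.360, limma) and Coq2 at 0.11. Of the 18 tricarboxylic acid cycle genes, 2 had a higher and 16 a lower knockout mean, from Suclg1 at -0.24 (adjusted p = 0.406, limma) to Fh1 at 0.02. None of the genes of these 3 lists passed the test. The counts of higher and lower means use FPKM as deposited, and their dependence on library scaling was not tested.

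Of 20 tested regulators, 8 had a higher and 12 a lower knockout mean, and 0 passed the test. The coactivator Ppargc1a was measured at 1.73, 1.08 and 0.959 FPKM in the controls and at 0.964, 1.43 and 0.506 FPKM in the knockouts. The groups overlapped, as they did for the next 6 regulators named. The log2 fold change of Ppargc1a was -0.21 (SE 0.21), and those of Ppargc1b, Nrf1, Gabpa, Esrra, Yy1 and Tfam, the activator of mitochondrial DNA transcription, lay between -0.07 and 0.11, with adjusted p from 0.779 to 0.990 (limma). The 2 regulators with the smallest p in each direction were the nuclear receptor Ppard, at 0.43 (adjusted p = 0.182, limma), and the mitochondrial deacetylase Sirt3, at -0.39 (adjusted p = 0.247, limma).

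Of 9 hypoxia and complex IV switch genes, 3 had a higher and 6 a lower knockout mean, and 0 passed the test. Pdk1, the kinase that shuts off pyruvate dehydrogenase, was measured at 11.1, 12 and 13.15 FPKM in the controls and at 8.48, 9.36 and 7.14 FPKM in the knockouts. The groups did not overlap (log2 fold change -0.49, SE 0.12, adjusted p = 0.175, limma). Rbpj, the DNA-binding partner of the Notch intracellular domain, had a log2 fold change of 0.22 (adjusted p = 0.426, limma). Of 25 genes of membrane organisation and import, 12 had a higher and 13 a lower knockout mean, with Slc25a4, an ADP/ATP carrier, at 0.60 and the fusion protein Opa1 at -0.29 (adjusted p = 0.360 and 0.288, limma), and 0 passed the test.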

How the data were processed

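Messenger RNA from 6 whole livers, purified on poly-T beads per the labels' protocols, was sequenced. The authors deposited gene-level FPKM values with gene names, positions and lengths; per the submitters' processing notes, HISAT2 2.0.5, featureCounts 1.5.0-p3 and the build GRCm38 were used, but neither strand nor the treatment of reads that match several places is given in the sources used here. Groups came from the sample titles; the columns headed NC match no title and stand for the controls only because no other group remained, and 0 sample columns were left unused. Whole reads were recovered from FPKM and gene length, and 100% of values above 0 lay within 0.1 read of a whole number. Library totals of 15612924 to 17511961 reads limit precision mainly for genes under 100 reads.

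Genes averaging 0.5 FPKM or more (12022 of 54532) were tested with limma 3.58.1 in R 4.3.3 on log2(FPKM + 1), with a mean-variance trend, two-sided, and Benjamini-Hochberg adjustment over all of them at 0.05. The pseudocount of 1 understates changes of low genes. Intervals are 95% and unadjusted. The script was tested on simulated data. Gene structure, overlaps and shared 50-base stretches came from GENCODE M21, which matched all 96 genes by ID and the lengths of 90. Promoters came from RefSeq.

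Named genes were Notch1, the highest-level gene and the smallest p in each direction per list, all subunits of small complexes, the 4 smallest p in each direction, isoforms at 0.5 FPKM or more, members in no list, and 8 regulators and inhibitors fixed by name. The values of 1 gene that this rule selects are not reported here. The members and lists were chosen with earlier results of these data known. Replicate numbers are shared between groups but no source says that they pair mice. Deviations from group means correlated at 0.31, 0.16 and 0.10 for same-numbered livers and at -0.25 to 0.11 for the others; each same-numbered value exceeded 0.1, so a fit with a replicate block is given as an alternative, with the pairing read from the data only. In all, 17 alternatives were run: pseudocounts, filters, rescaling to 1 sum, quantile normalization, variance settings, array weights, voom on the recovered reads, the block, and each liver left out.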

Additional observations from a re-analysis of the deposited data

How the results depend on the processing

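Under all 17 alternatives 0 respiratory chain genes and 0 genes of the pathway lists passed the test, and none of the 914 refitted values of named genes did (lowest adjusted p = 0.0816, limma). With the replicate block, the pairing read from the data gave 0 called genes instead of 3 and a smallest adjusted p among respiratory chain genes of 0.172 (Ndufaf3); it changed no call among them. Over all genes, the 3 calls became 1 with a pseudocount of 0.1, 0 without the filter (22718 genes tested), 5 after rescaling to the same sum and 15 with voom. Leaving out 1 liver gave 0 to 58 calls: 58 without control 3, 29 without knockout 2, 2 without knockout 3, 1 without control 1, and 0 without control 2 or knockout 1, where the lone pair is assumed to vary like the full groups. Rescaling moved the median log2 fold change of the respiratory chain genes from -0.06 to 0.079, of complex I to 0.117, of the Nduf-named assembly factors to 0.175, of complex II to -0.0253, of complex III to 0.0469, of complex IV to 0.0136 and of ATP synthase to 0.0902; quantile normalization gave -0.0453 for complex II and 0.0266 for complex III. With 1 liver left out, the median of all respiratory chain genes ranged from -0.13 to -0.01, and that of the assembly factors from -0.0239 (without control 3) to 0.168 (without control 2). After rescaling, the sign reversed for Atp5g3 (0.0119) and Cox6a1 (0.0196). Without knockout 2 it reversed for Atp5g1 (-0.138, range with 1 liver left out to 0.112) and Uqcr11 (-0.116, to 0.138). Without control 1 it reversed for Ndufa4l2 (-0.253, to 0.249). The cause of these reversals, and of the changes in the number of calls, was not tested. Depth limits Cox7a1, Ndufa4l2 and Atp5s, the tested genes with fewer than 100 reads in some library.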
